A study of Mus musculus with 6 samples.

Results

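The genes described are Fras1, Frem1 and Frem2, which encode the matrix proteins of the Fraser complex, Grip1, which encodes the scaffold that binds some of them, Npnt, which encodes nephronectin, and Itga8, which encodes integrin alpha 8. They were chosen by symbol among the probe sets annotated to exactly 1 gene, 6 of 18193 genes so named, and the 13 probe sets that match them are all reported. The samples were wild-type FVB/N mouse embryos of unknown sex at embryonic day 13 (Theiler stage 21), and every array carried RNA from the bladder neck and urethra. Trypsin-treated tissue was split with a needle into 2 layers, epithelium on the arrays titled 1, 2 and 5 and mesenchyme on those titled 1, 2 and 3, from samples that the labels give as not pooled. RNA was amplified in 2 rounds before hybridization to a 1-colour Affymetrix mouse whole-genome array. Whether the arrays came from separate embryos is not stated, and p-values therefore measure only the spread between these samples, which may be technical.

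Fras1, Frem1 and Frem2 are large extracellular proteins that depend on each other in the basement membrane, the sheet of matrix between an epithelium and the mesenchyme below it. Fras1 and Frem2 span the membrane of the epithelial cell, and the PDZ-domain scaffold Grip1 carries them to its basal side, whereas Frem1 is secreted and in mouse skin comes largely from dermal cells. Loss of FRAS1, FREM2 or GRIP1 in people causes Fraser syndrome, with fused eyelids and digits and malformed or missing kidneys. Nephronectin is a secreted basement membrane protein whose RGD motif binds integrin alpha 8 beta 1. In the mouse kidney the ureteric bud epithelium makes nephronectin and the mesenchyme around it carries integrin alpha 8, and this contact is needed for normal expression of Gdnf, the ligand that draws the bud out.

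The array labelled mesenchyme 1 stood apart from the rest of its layer, so the differences of the members and of the named partner genes are given with and without it. Mesenchyme 2 and 3 correlated at r = 0.976 across probe sets, which are not independent replicates, and mesenchyme 1 with them at 0.86 and 0.848. On mesenchyme 1 the summed normalized signal of 10 markers of liver, heart, lung, pancreas and epidermis was 317996, against 2290 to 20806 on the other 5 arrays. Most of that sum on epithelium 1, 2 and 5 came from Lor, at 16050, 10070 and 19300, which read 40730 on mesenchyme 1. The layers otherwise carried their defining markers. All 10 epithelial markers (among them Epcam, Cdh1, Krt8 and Trp63) lay above the mesenchymal arrays on each epithelial array, with sums of 184893 to 216960 on the epithelial arrays and of 84140, 13290 and 3002 on mesenchyme 1, 2 and 3. The markers behind the sum on mesenchyme 1 were uneven. Epcam read 20600 there against 32040 to 44400 on the epithelial arrays, but Grhl2 565 against 9861 to 15540 and Cldn6 127 against 1740 to 2813. The 10 mesenchymal markers (among them Pdgfra, Col1a2 and Prrx1) summed to 24162 to 44856 on the epithelial arrays and to 185109 to 223365 on the mesenchymal arrays, and no marker of either list was at 0. For 8 of these 10 every mesenchymal array lay above every epithelial one. The layers overlapped for Twist1 (467 on mesenchyme 1, 724 on epithelium 2) and Lum (1434 on mesenchyme 3, 2066 on epithelium 2). In bulk samples fewer cells of a type and less RNA per cell cannot be told apart.

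RefSeq promoters (GRCm38.p6) were found for 5 of the 6 genes, all but Fras1. The 250 bases upstream of the start are shown for Frem2, the member with the most positive difference below, Itga8, the member with the most negative one, and Npnt, which was bright in both layers. Capitals mark matches of CCAAT and of the GC box, GGGCGG, on either strand, a match on the opposite strand being printed as its reverse complement.
Frem2, chr3:53657356-53657605, minus strand: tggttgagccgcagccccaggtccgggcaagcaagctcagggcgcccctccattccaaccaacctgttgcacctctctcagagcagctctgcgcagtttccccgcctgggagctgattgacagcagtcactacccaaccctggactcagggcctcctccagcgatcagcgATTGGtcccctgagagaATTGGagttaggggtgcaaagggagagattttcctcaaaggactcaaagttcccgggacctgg
Itga8, chr2:12301945-12302194, minus strand: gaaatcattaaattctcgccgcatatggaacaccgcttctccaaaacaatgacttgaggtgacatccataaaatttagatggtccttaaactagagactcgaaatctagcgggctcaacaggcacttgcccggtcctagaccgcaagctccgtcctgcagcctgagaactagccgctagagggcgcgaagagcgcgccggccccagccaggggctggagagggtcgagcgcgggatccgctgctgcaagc
Npnt, chr3:132950292-132950541, minus strand, the upstream one of its starts: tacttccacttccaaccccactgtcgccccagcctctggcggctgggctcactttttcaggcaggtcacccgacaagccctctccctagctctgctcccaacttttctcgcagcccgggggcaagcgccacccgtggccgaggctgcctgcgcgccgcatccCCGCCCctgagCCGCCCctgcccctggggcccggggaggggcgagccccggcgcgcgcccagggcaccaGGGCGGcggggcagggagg
The Frem2 stretch held 2 CCAAT matches and no GC box, the Npnt stretch 3 GC boxes and no CCAAT, and the Itga8 stretch neither. On both strands CCAAT occurs in 33.8% of 32851 promoter stretches of this length, and the GC box in 32.7%. TATAAA (12.4% of stretches), the grainyhead core ACCGGT (1.86%) and the forkhead core TGTTTAC (3.17%) were not found in these 3. The stretches differed in CpG content, with 8 CpG in Frem2, 18 in Itga8 and 21 in Npnt, against a median of 6 over all stretches.

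Of the 6 genes, 2 were higher in epithelium with all 6 arrays, Frem2 and Fras1, and none was higher in mesenchyme at adjusted p 0.05 in limma, where 4 of the 6, and 19.5% of all tested genes, had an unadjusted p under 0.05. Without mesenchyme 1, Itga8 joined them as higher in mesenchyme. Over all 13717 tested genes 5.98% passed the threshold, with 1.95% on the epithelial and 4.03% on the mesenchymal side. Without mesenchyme 1 the share was 14.5% of 13587 genes, with 6.37% on the epithelial and 8.17% on the mesenchymal side. The layers did not overlap for 3 of the 6 genes, against 28.8% of all tested genes, and without mesenchyme 1 for all 6, against 45.4%. Signals were quantile normalized as log2(signal + 16), and each difference is the epithelial minus the mesenchymal mean on that scale, with limma's standard error (SE, n = 3 arrays per layer), and signals are in normalized units. The plot of member signals shows these values by array.

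**Figure D1:**
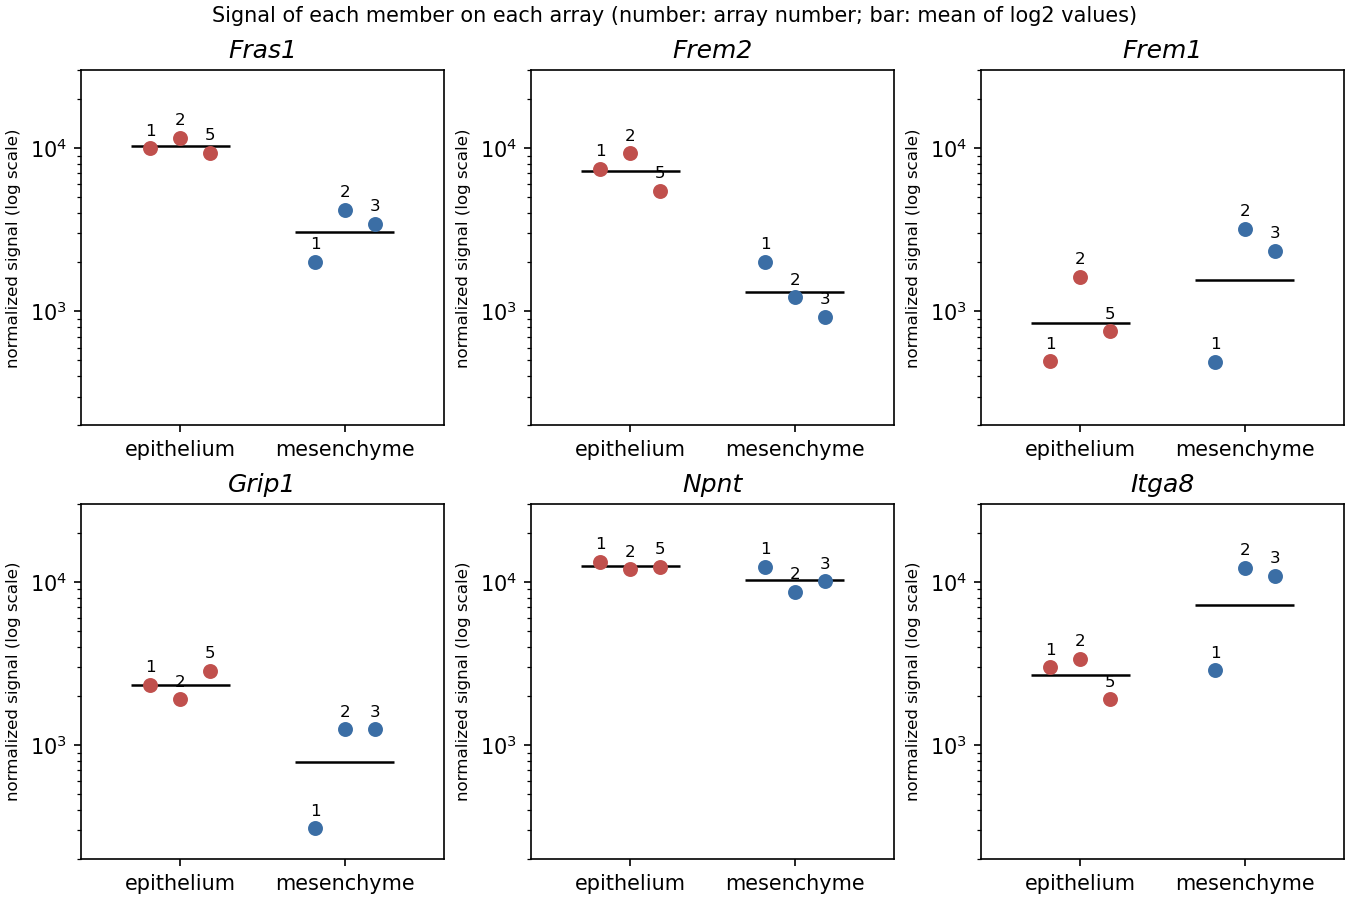
Normalized signal (log axis) of the brightest probe set of each member on the 3 epithelial (left, red) and 3 mesenchymal arrays (right, blue), with the array number above each point and the mean of log2 values as a bar. For Fras1, Frem2 and Grip1 every epithelial array lies above every mesenchymal one, Npnt stays between 8686 and 13310, and mesenchyme 1 lies among the epithelial arrays for Itga8.

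Frem2, a membrane-spanning Fraser protein, had the largest difference of the members. It read 7453, 9289 and 5479 on epithelium 1, 2 and 5, and 2018, 1224 and 926 on mesenchyme 1, 2 and 3. Every epithelial array lay above every mesenchymal one. The difference was 2.44 ± 0.379 (SE), a 5.44-fold excess in epithelium (95% interval 1.55 to 3.33, limma adjusted p = 0.0139), and 2.79 without mesenchyme 1 (6.92-fold, adjusted p = 0.00177). As a share of its epithelial mean Frem2 stood at 27.2%, 16.5% and 12.5% on mesenchyme 1, 2 and 3. The epithelial marker sum ran in the same order, at 41.7%, 6.58% and 1.49% of its epithelial mean, and its part in the Frem2 values was not tested. The call was lost without epithelium 1 (adjusted p = 0.0859), epithelium 5 (0.0523) or mesenchyme 2 (0.0656).

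Fras1, the founding member of the complex and likewise a membrane-spanning protein of epithelial cells, was higher in epithelium by a smaller ratio. It read 9971, 11573 and 9391 on epithelium 1, 2 and 5, and 2019, 4194 and 3443 on mesenchyme 1, 2 and 3. The layers did not overlap, and mesenchyme 1 was the lowest array. The difference was 1.73 ± 0.322 (3.32-fold, 95% interval 0.98 to 2.49, adjusted p = 0.0249), and 1.44 without mesenchyme 1 (2.70-fold, adjusted p = 0.00515). On mesenchyme 3, where the epithelial marker sum was 1.49% of its epithelial mean, Fras1 read 33.4% of its own epithelial mean, and on mesenchyme 1, where that sum was 41.7%, Fras1 read 19.6%. The part of epithelial RNA in these values was not tested. The call of Fras1 was lost without any one of the other 5 arrays, with adjusted p between 0.0571 without mesenchyme 2 and 0.122 without epithelium 1, and with median centring (1.88, adjusted p = 0.0914). Its other probe set read at most 39.8 on any array and lay below the filter on low signals.

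Frem1, the secreted member of the family, had a difference of the opposite sign to Fras1 and Frem2 and did not pass the threshold. Its only probe set read 495, 1632 and 757 on epithelium 1, 2 and 5, and 490, 3205 and 2359 on mesenchyme 1, 2 and 3. Mesenchyme 2 and 3 were the highest arrays, and mesenchyme 1 was level with epithelium 1. The difference was -0.86 ± 0.767 (95% interval -2.66 to 0.94, adjusted p = 0.583), and -1.72 without mesenchyme 1 (95% interval -2.91 to -0.53, adjusted p = 0.0685), which missed the threshold although the layers then did not overlap. Epithelium 2 carried the highest Frem1 value of its layer and also the highest mesenchymal marker sum, 44856 against 24162 on epithelium 1 and 36297 on epithelium 5. The part of mesenchymal RNA in that value was not tested.

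The Fraser proteins were also set against each other within arrays, as the log2 ratio of a pair of members on the same array. Each shift restates the gap between 2 differences given above, and the pairs were chosen after their values were seen, so the ratios are a description with no test. Frem2 over Frem1 was 3.87, 2.50 and 2.83 on epithelium 1, 2 and 5, and 2.01, -1.38 and -1.33 on mesenchyme 1, 2 and 3, a shift of 3.30 between the layers, and of 4.51 without mesenchyme 1. Fras1 over Frem1 averaged 3.57 ± 0.738 in epithelium and 0.98 ± 0.895 in mesenchyme (SD, n = 3 each), a shift of 2.59, and of 3.15 without mesenchyme 1. For both ratios the epithelial arrays lay above the mesenchymal ones. Fras1 over Frem2 shifted by -0.71, and by -1.36 without mesenchyme 1.

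Grip1, the intracellular scaffold of Fras1 and Frem2, had no call in either comparison. It read 2347, 1905 and 2844 on epithelium 1, 2 and 5, and 309, 1249 and 1253 on mesenchyme 1, 2 and 3. The layers did not overlap, and mesenchyme 1 stood far below the other mesenchymal arrays. The difference was 1.55 ± 0.570 (95% interval 0.21 to 2.88, adjusted p = 0.19), and 0.91 without mesenchyme 1 (adjusted p = 0.072), which is 2.92-fold with that array and 1.88-fold without it. A dimmer probe set of Grip1, below the filter, read 255, 101 and 215 on epithelium 1, 2 and 5, and 37.3, 38.3 and 43.7 on mesenchyme 1, 2 and 3. There mesenchyme 1 was level with mesenchyme 2 and 3, and the difference in the fit over all probe sets was 1.80 (adjusted p = 0.184) and 1.78 without mesenchyme 1.

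**Figure D2:**
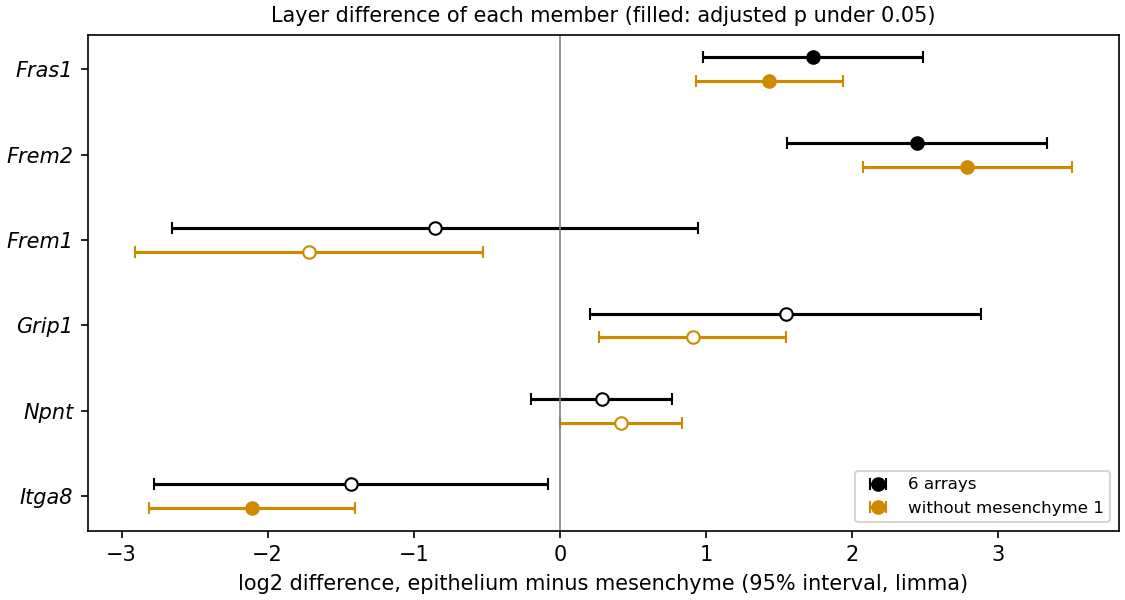
Log2 difference, epithelium minus mesenchyme, of each member with its 95% interval from limma, for all 6 arrays (black) and without mesenchyme 1 (orange), filled where adjusted p is under 0.05. Frem2 and Fras1 are filled in both comparisons and Itga8, at -2.11, only without mesenchyme 1.

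Npnt, the ligand of integrin alpha 8 beta 1, was bright in both layers. It read 13310, 11938 and 12423 on epithelium 1, 2 and 5, and 12385, 8686 and 10123 on mesenchyme 1, 2 and 3. The layers overlapped only through mesenchyme 1, and the highest and lowest of the 6 arrays differed by 0.61 on the log2 scale, the smallest range of the members. The difference was 0.29 ± 0.207 (limma adjusted p = 0.494), with a 95% interval of -0.20 to 0.77, which lies within 2-fold in either direction. That interval holds for this probe set and measures only the spread between these samples, mesenchyme 1 among them. Without mesenchyme 1 the difference was 0.42 (95% interval 0.00 to 0.83, adjusted p = 0.186). On mesenchyme 3 Npnt read 80.6% of its epithelial mean beside an epithelial marker sum of 1.49%, and the part of epithelial RNA in its mesenchymal values was not tested.

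The other 4 probe sets of Npnt gave no call either. The next brightest, of a kind that can match several transcripts, read 6461, 5407 and 4160 on epithelium 1, 2 and 5, and 7085, 4781 and 6376 on mesenchyme 1, 2 and 3. The difference was -0.19 (95% interval -0.85 to 0.47, adjusted p = 0.765). The sign thus differed between the 2 brightest sets, and the layers overlapped in each. The remaining 3 read at most 445 on any array, with differences between -0.25 and 0.16.

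Itga8, the receptor chain, ran the other way from Fras1 and Frem2. It read 3004, 3373 and 1909 on epithelium 1, 2 and 5, and 2869, 12199 and 10898 on mesenchyme 1, 2 and 3. Mesenchyme 2 and 3 were far above the epithelial arrays, and mesenchyme 1 lay among them. With all arrays the difference was -1.43 ± 0.575 (95% interval -2.78 to -0.08, adjusted p = 0.231). Without mesenchyme 1 Itga8 was higher in mesenchyme by 4.32-fold (-2.11, 95% interval -2.82 to -1.40, adjusted p = 0.00432). The 3 epithelial arrays held 26%, 29.2% and 16.5% of the mean of mesenchyme 2 and 3, beside mesenchymal marker sums of 12.5%, 23.2% and 18.8%, and the part of mesenchymal RNA in these epithelial values was not tested. On mesenchyme 1 that marker sum was 116% of the mean of mesenchyme 2 and 3, while Itga8 was 24.8%. The markers in the sum did not move together. Col1a1 (27270 on mesenchyme 1, against 5443 and 5090 on mesenchyme 2 and 3), Col1a2, Col3a1 and Lum were higher on mesenchyme 1. Twist1 (467, against 3389 and 4294), Pdgfrb (1566, against 5984 and 9159), Prrx1, Pdgfra, Zeb1 and Zeb2 were lower there.

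The second Itga8 probe set gave the same order of arrays at a lower signal, with 1 exception. It read 259, 375 and 863 on epithelium 1, 2 and 5, and 155, 1895 and 1510 on mesenchyme 1, 2 and 3. Epithelium 5 was the highest epithelial array here and the lowest on the brighter set, and mesenchyme 1 was the lowest of all. Its difference was -0.80 (adjusted p = 0.706), and -1.97 without mesenchyme 1 (adjusted p = 0.0574 among all probe sets above the filter), which missed the threshold. The log2 ratio of Npnt over Itga8, ligand over receptor chain, was 2.14, 1.82 and 2.69 on epithelium 1, 2 and 5, and 2.10, -0.49 and -0.11 on mesenchyme 1, 2 and 3. It shifted by 1.71 between the layers, and by 2.53 without mesenchyme 1, likewise as a description.

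**Figure D3:**
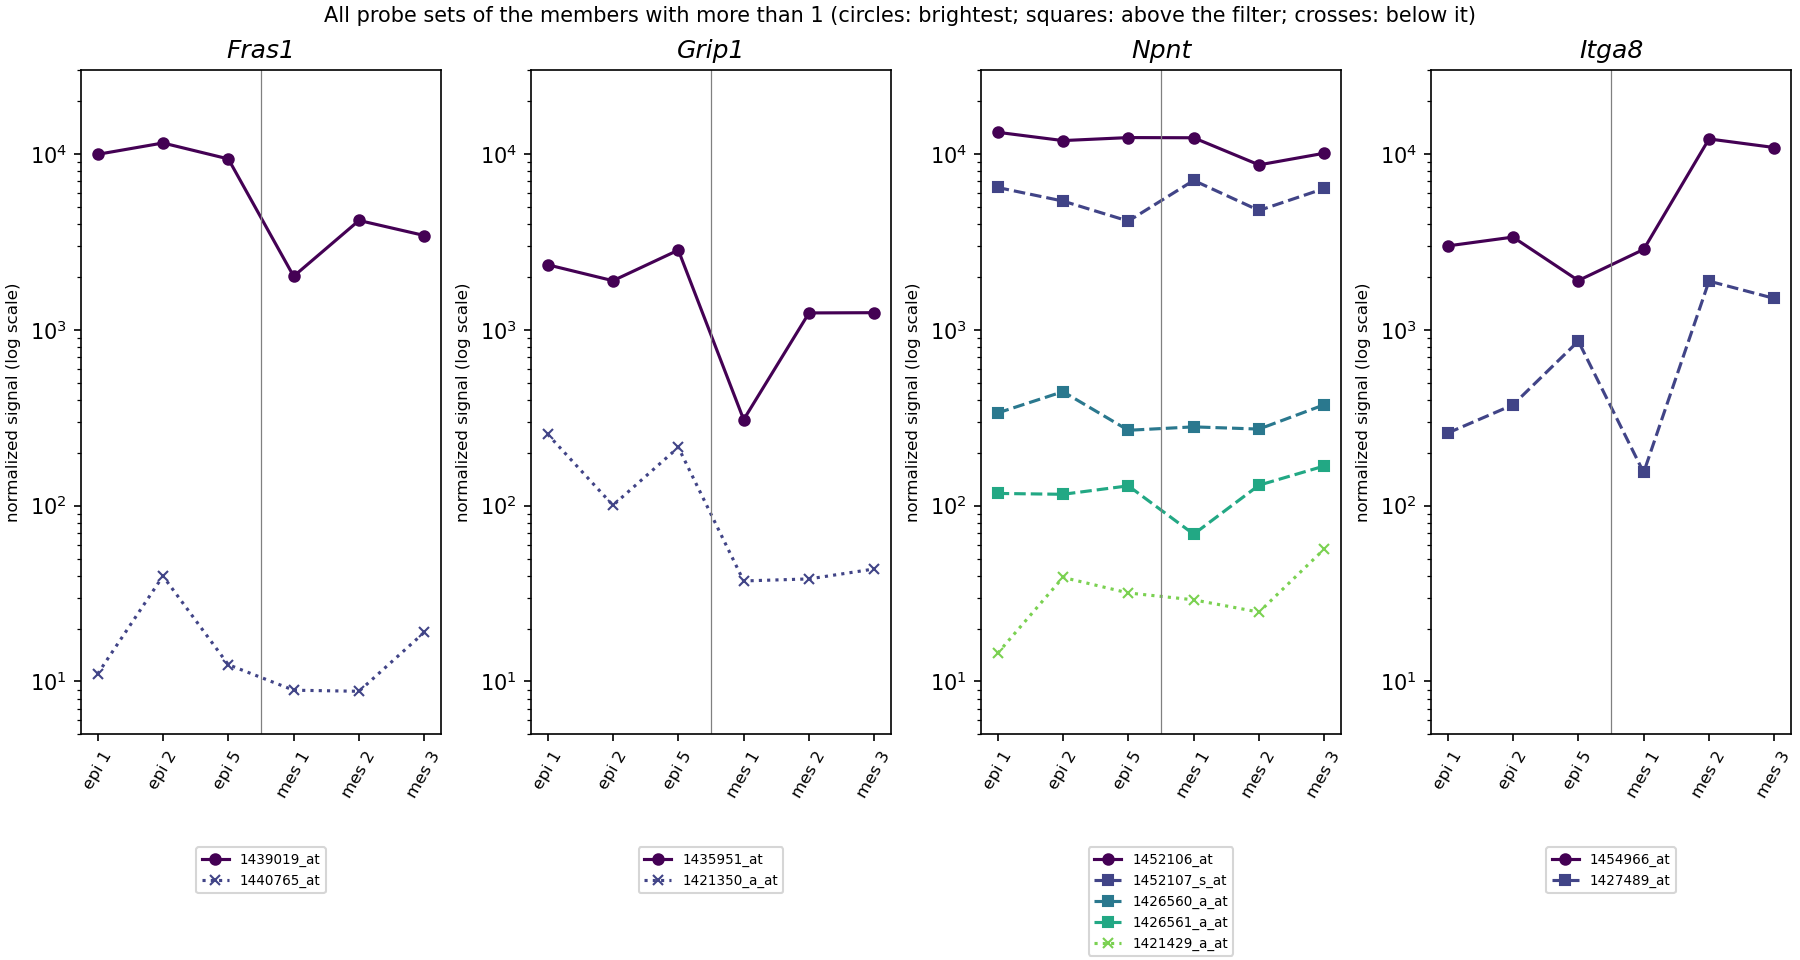
Normalized signal (log axis) of every probe set of the 4 members with more than 1, on the epithelial arrays (left of the grey line) and the mesenchymal arrays (right of it), with lines that only join points of 1 probe set. Circles mark the brightest set, squares further sets above the filter and crosses sets below it, and both Itga8 sets drop on mesenchyme 1, to 2869 and 155.

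Mesenchyme 1 lay off the mean of mesenchyme 2 and 3 by -2.45 for Frem1, -2.00 for Itga8, -1.96 for Grip1, -0.91 for Fras1, 0.40 for Npnt and 0.91 for Frem2 on the log2 scale. Likeness of pattern was measured as the root-mean-square difference of log2 profiles over the 6 arrays, each gene centred on its own mean. The closest pairs of members were Fras1 with Grip1 (0.45) and Frem1 with Itga8 (0.57), and the farthest was Frem2 with Itga8 (2.17). The median distance of a member to all genes compared, with all arrays, ran from 0.70 for Npnt to 1.40 for Frem2. Without mesenchyme 1 the closest pair was Grip1 with Npnt (0.30, against 1.02 with all arrays), ahead of Fras1 with Grip1 (0.39), while Frem1 with Itga8 stayed at 0.57 and Frem2 with Itga8 was the farthest pair again (2.40). The measure is not scaled, so genes with small differences can lie close by it. Npnt and Grip1 had the smallest layer differences of the members without mesenchyme 1 (0.42 and 0.91). By the same measure with all arrays, over 10336 genes with a range of at least 1 log2 unit, the genes nearest to Fras1 were Ptges, a prostaglandin E synthase (0.14), Syde2 and Gm15867. Nearest to Frem2 were the axonemal dynein gene Dnah11 (0.21), the copine gene Cpne8 and Arhgef4. Nearest to Grip1 was the synaptotagmin gene Syt9 (0.08), followed by Mab21l3 and 9430083A17Rik. Frem1 was nearest to Zmat1 (0.24), the netrin receptor gene Unc5d and the transmembrane collagen gene Col25a1. Npnt, whose range is small, was nearest to Hilpda (0.16), Gal3st1 and Mical3. Itga8 was nearest to the carbonic anhydrase gene Car14 (0.17), to Dbh, which encodes dopamine beta-hydroxylase of noradrenaline synthesis (0.17), and to Asphd2.

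Among 20 tested genes of the basement membrane around the Fraser complex, 2 were higher in epithelium and 4 in mesenchyme, against 1.95% and 4.03% of all tested genes. Their median difference was 0.48, against 0.12 over all tested genes. Vwa2, whose product AMACO binds the Fraser complex, read 700, 864 and 1198 on epithelium 1, 2 and 5, and 229, 152 and 118 on mesenchyme 1, 2 and 3 (2.37 ± 0.408, adjusted p = 0.0191, and 2.66 without mesenchyme 1). The laminin chain gene Lama5 was higher in epithelium by a similar ratio (2.35, adjusted p = 0.0175, and 2.64 without mesenchyme 1). Both layers were again apart on every array for these genes, as for Fras1 and Frem2. The nidogen genes Nid2 (-4.06, adjusted p = 0.00835) and Nid1 (-3.18, adjusted p = 0.00549) and the collagen IV genes Col4a2 (-1.59, adjusted p = 0.0157) and Col4a1 (-0.94, adjusted p = 0.0417) were higher in mesenchyme. Without mesenchyme 1 these 4 differed by -4.30, -3.19, -1.42 and -0.92. Markers of some other cells of the stroma moved the same way. The 5 endothelial markers summed to 501 to 1650 on the epithelial arrays and to 10348 to 13747 on the mesenchymal arrays. The 5 smooth muscle markers summed to 4484 to 10644 in epithelium and to 22797 to 51548 in mesenchyme, and the 4 neuronal markers to 500 to 967 in epithelium and to 23286 to 33751 in mesenchyme. Each of these endothelial, smooth muscle and neuronal markers was higher on every mesenchymal array than on any epithelial one. That held for 2 of 3 tested glial, 1 of 4 macrophage and 1 of 3 erythroid markers (28.8% of all tested genes were apart in either direction). The part of all these cells in the nidogen and collagen IV values was not tested. Without mesenchyme 1 the counts of basement membrane genes were 8 and 6 of 20, against 6.37% and 8.17% of all tested genes. Of the 9 genes past the threshold in the 5 partner lists, leaving out 1 of the arrays other than mesenchyme 1 kept between 1 (without epithelium 1) and 7 (without epithelium 2), and Vwa2 and Lama5 lost their calls each time. Under median centring Col4a1 and Col4a2 did not pass (adjusted p = 0.299 and 0.0641), and Col4a1 also missed the threshold with no normalization (0.104), no filter (0.0584), the mean of its probe sets (0.205) and eBayes without a trend (0.126). Frem3 was not analysed here.

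Of 6 tested genes for the partner chain and the other ligands of integrin alpha 8, 1 was higher in mesenchyme and 0 in epithelium in limma (3 and 0 at an unadjusted p under 0.05). Over all tested genes 5.98% passed the threshold, and 19.5% had an unadjusted p under 0.05. Tnc, the matrix glycoprotein tenascin C, read 358, 582 and 456 on epithelium 1, 2 and 5, and 2254, 2470 and 4496 on mesenchyme 1, 2 and 3 (-2.64 ± 0.388, adjusted p = 0.0117, and -2.90 without mesenchyme 1). Itgb1, the beta chain that pairs with integrin alpha 8, read 3936 to 5699 on the epithelial arrays and 5514 to 6763 on the mesenchymal arrays, with a difference of -0.38 (95% interval -0.97 to 0.21, adjusted p = 0.454) and of -0.31 without mesenchyme 1 (adjusted p = 0.491). The layers thus overlapped for the beta chain, where Itga8 differed without mesenchyme 1. Egfl6, another RGD ligand of the receptor, differed by -1.60 once mesenchyme 1 was left out (adjusted p = 0.00621) and missed the threshold with it (-1.29, adjusted p = 0.0786). Of 6 other tested RGD-binding integrin chains, 0 passed in limma with or without mesenchyme 1. Before adjustment 3 of them had p under 0.05 with all arrays, 2 higher in epithelium and 1 in mesenchyme, against 19.5% of all tested genes. Without mesenchyme 1 the number was 2, each higher in epithelium, against 3582 of all 13587 tested genes.

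Gdnf, the gene that depends on integrin alpha 8 in the mouse kidney, was low on mesenchyme 1 and high on mesenchyme 2 and 3, as was Itga8. It read 179, 153 and 183 on epithelium 1, 2 and 5, and 139, 3208 and 2954 on mesenchyme 1, 2 and 3. Mesenchyme 1 was the lowest array and mesenchyme 2 and 3 the highest, so that the difference was -2.61 ± 1.12 with all arrays (adjusted p = 0.259) and -4.15 without mesenchyme 1 (adjusted p = 0.000607). Of 11 tested genes of the Gdnf arm and its regulators, the transcription factor gene Gata3 was higher in epithelium (2.45 ± 0.456, adjusted p = 0.0249, and 2.06 without mesenchyme 1) and 0 were higher in mesenchyme in limma (1 at an unadjusted p under 0.05), with a median of 0.16. Over all tested genes 1.95% were higher in epithelium and 4.03% in mesenchyme. Without mesenchyme 1 the counts were 1 and 4, against 6.37% and 8.17% of all tested genes, and the median was -0.26, against 0.02. The 4 were Gdnf, its receptor gene Ret (-1.25, and -0.50 with all arrays), Eya1 (-2.94, and -1.66) and Sall1 (-1.92, and -0.92). With all arrays and the mean of its probe sets, Ret differed by -0.12. Markers of metanephric mesenchyme summed to 2098 to 4300 on the epithelial arrays and to 1832, 19182 and 21865 on mesenchyme 1, 2 and 3, most of it from Eya1. Of the other 4, Six2 read 294, 635 and 239 on epithelium 1, 2 and 5, and 294, 962 and 1387 on mesenchyme 1, 2 and 3, Wt1 at most 103 on the epithelial arrays and 169, 1252 and 146 on the mesenchymal ones, Osr1 between 85.5 and 209 and Cited1 at most 51.9 on any array. Markers of Wolffian duct and ureteric bud, Ret among them, summed to 2855 to 3940 on the epithelial arrays and to 1906, 6612 and 5773 on mesenchyme 1, 2 and 3. Most of it came from Ret, at 2227, 2774 and 1625 on epithelium 1, 2 and 5, and 1107, 5517 and 4664 on mesenchyme 1, 2 and 3. Wnt9b ran the other way, at 617, 273.5 and 469 on the epithelial and 175, 185 and 130 on the mesenchymal arrays. Wnt11 read between 480 and 897, and Pax8 and Lhx1 at most 109 on any array. The part of kidney tissue in the Gdnf and Itga8 values was not tested. Of 8 tested integrin-linked adhesion genes, Fermt2, the kindlin that activates integrins, was the gene that passed, against 5.98% of all tested genes. Fermt2 differed by -1.42 (limma adjusted p = 0.00995, and -1.46 without mesenchyme 1). Median centring (adjusted p = 0.175) and averaging its probe sets (-0.73, adjusted p = 0.16) each ended that call. None of the other 7 passed, also at an unadjusted p under 0.05.

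**Figure D4:**
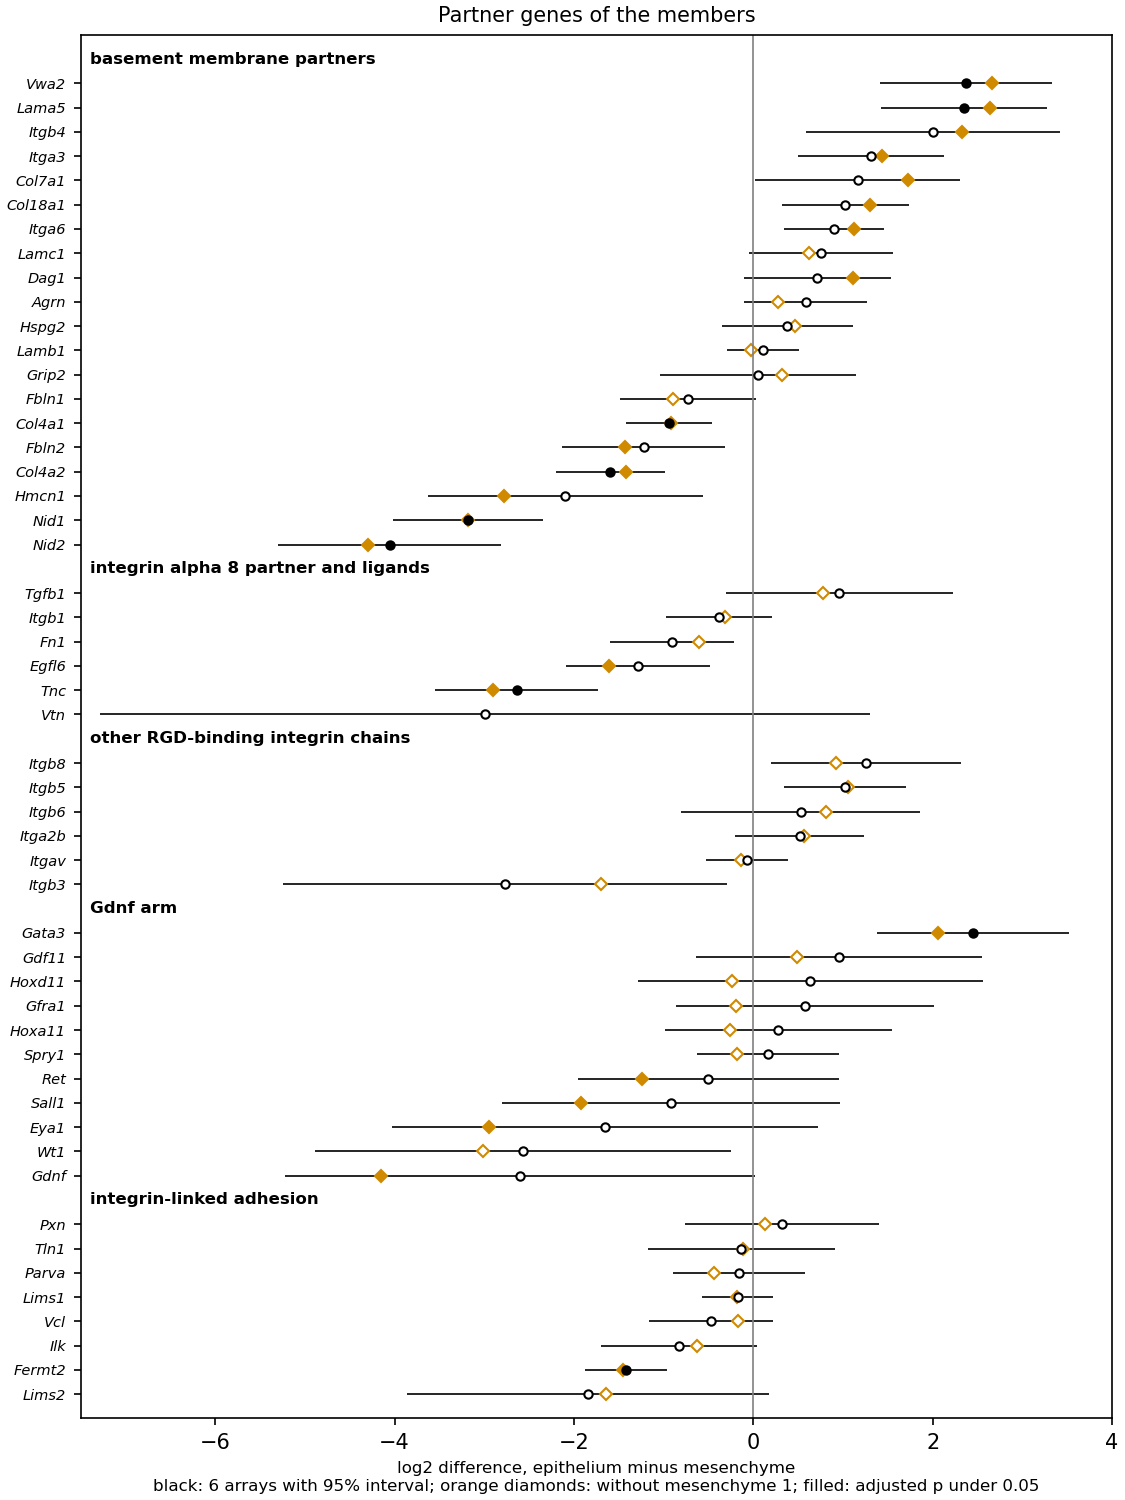
Log2 difference, epithelium minus mesenchyme, of the tested partner genes by list, with all 6 arrays (black circles, 95% interval from limma) and without mesenchyme 1 (orange diamonds), filled where adjusted p is under 0.05. Vwa2 and Lama5 lie at 2.37 and 2.35, the nidogen genes at -4.06 and -3.18, and Gdnf moves to -4.15 without mesenchyme 1.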

How the data were processed

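Affymetrix mouse whole-genome arrays were hybridised with RNA from epithelium and mesenchyme, 3 each. The deposited table holds 1 linear intensity per probe set and array, made with GCOS per the submitters' processing notes (version not given in the sources used here). In the authors' intensity values the mean of each array without its top and bottom 2% is 1500. The medians of the arrays ran from 126 to 254 (2.02-fold). No detection calls were used, so dim probe sets have no bound.

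Values were taken as log2(signal + 16), which understates changes of dim genes, and quantile normalized. Of 45101 probe sets, 64 controls were left out, 34945 name 1 gene, 932 several and 9160 none. Probe sets with a mean above the 40th percentile were kept, and the brightest represents its gene. limma 3.58.1 in R 4.3.3 (lmFit, eBayes with trend, no covariate) compared the layers, with Benjamini-Hochberg adjustment over all tested genes. Leaving out mesenchyme 1 repeated every step on 5 arrays. Code was tested on simulated data. The members and lists were chosen with earlier results of these data known.

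Named genes are the members with all probe sets, up to 4 genes past the threshold with the largest difference in each partner list, Itgb1, Gdnf and the 3 nearest patterns per member. Col4a1, Col4a2, Frem3, Egfl6, Ret, Eya1, Sall1, Six2, Wt1, Osr1, Cited1, the within-array ratios and all other named markers were added after their values were seen. Alternatives were other offsets, normalizations, filters, probe set rules, variance models and array weights, a block for the replicate number, and leaving out each array.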

Additional observations from a re-analysis of the deposited data

How the results depend on the processing

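Each member kept its direction on its brightest probe set under all 12 other settings and without each array, while for Npnt 2 further probe sets gave the opposite sign (-0.19 and -0.25, neither past the threshold). With 1 array left out, the members past the threshold numbered 0 to 3 and all genes past it 142 (without epithelium 1) to 1975 (without mesenchyme 1), against 2 and 820, and partner genes past it 1 to 22, against 9. The member differences then ran from 1.44 to 1.97 for Fras1, 2.20 to 2.79 for Frem2, -1.72 to -0.34 for Frem1, 0.91 to 1.86 for Grip1, 0.17 to 0.42 for Npnt and -2.11 to -1.06 for Itga8. Fras1 missed the threshold with median centring (1.88), which left 1 member, and on its dim probe set (0.33). Median centring moved the median of all genes to 0.23, against 0.12. Array quality weights, which put 26.7 on epithelium 1 and 0.0501 on mesenchyme 2, passed 5109 genes, 35 partner genes and all 6 members, with differences of -2.05 for Frem1, 0.99 for Grip1, 0.38 for Npnt and -1.79 for Itga8, and the cause was not tested. With the replicate number as a block, 0 genes, partner genes and members among them, passed in limma, 1460 having an unadjusted p under 0.05 (Fras1 1.88, adjusted p = 0.234, Frem2 2.39, adjusted p = 0.194, and Ret 0.0050, its sign reversed), where only numbers 1 and 2 occur in both layers. Same-numbered arrays did not deviate together from their layer means (r = -0.0242 and 0.0267). With only numbers 1 and 2 shared, and a layer mean that includes mesenchyme 1, this cannot show whether the numbers pair the samples. The number of arrays limits every value, and the dim probe sets of Fras1, Grip1 and Npnt lie where no detection call bounds them.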
